A study of Arabidopsis thaliana with 12 samples.

Results

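Transposable elements (TEs) that, by the rule below, kept their CHH methylation in control plants without RNA polymerase IV (Pol IV) numbered 700. They were among 20087 TEs with enough coverage, out of 31189 TEs in the table. CHH is a cytosine followed by 2 bases other than G, CHG has a G in the last place, and CG is followed directly by G. The 700 TEs were chosen by measured values. They had at least 50 CHH calls in all 6 groups, a CHH level of at least 8% in wt control and a level in poliv control of at least 0.75 times that in wt control. A call is a cytosine read once, and a level is the share of calls that were methylated. The name Pol IV-independent TEs stands for this choice in control plants, and 445 of the 700 also met the rule in heated plants. Of the 3128 TEs with at least 8% CHH in wt control, the other 2428 fell below the ratio, 1793 of them below 0.25 times wt control (Pol IV-dependent TEs) and 635 in between.

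Methylation was measured by bisulfite sequencing in stem cell nuclei that were sorted from shoot inflorescence apices of Arabidopsis thaliana (Col-0) at day 28. All plants carried the stem cell reporter pCLV3::H2BmCherry, and wt is Col-0 with this reporter and no mutation. The groups were ddm1 (ddm1-10), which lacks the chromatin remodeller DDM1, poliv (nrpda-3), which lacks the large subunit of Pol IV, and wt, each exposed to heat and as control, with 2 libraries in each of the 6 groups. Heated plants were kept at 37 °C from day 6 to day 7 and then had 21 days to recover, while control plants stayed without heat. The table gives 1 value per group for 2 libraries, so no level has a replicate error, and each test compares pooled libraries with each other and not genotypes or treatments.

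CHH methylation of plant TEs is laid down along 2 routes. In RNA-directed DNA methylation, Pol IV transcribes the TE, RDR2 copies the transcript, DCL3 cuts it to small RNAs, and AGO4 with these small RNAs guides the methyltransferase DRM2. Along the other route, CMT2 methylates CHH and CMT3 methylates CHG at nucleosomes that carry methylated histone H3, without small RNAs, and DDM1 gives these enzymes access to compact chromatin. CMT2 is known to act mainly in the interior of long TEs, and RNA-directed methylation at short TEs and at the edges of long ones.

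The groups held between 138837280 CHH calls (wt control) and 227999199 CHH calls (wt heat). Chloroplast DNA, which is not methylated and shows how many cytosines escaped conversion, had CHH levels of 0.805% in ddm1 heat and 0.450% in ddm1 control, 0.704% in poliv heat and 0.404% in poliv control, and 0.703% in wt heat and 0.390% in wt control. The background was thus higher in each heat group than in its control. Both mutants differed from wt at the gene they are named for. DDM1 had a CHG level of 48.7% in ddm1 heat, against 0.547% in wt heat, and NRPD1, the gene for the large subunit of Pol IV, had 14.9% in poliv heat, against 0.951% in wt heat. CHG of NRPD1 was also above wt in ddm1, at 6.93% in ddm1 heat and 6.71% in ddm1 control, so this is not particular to poliv. A feature is called changed here if a two-sided Fisher's exact test on its calls had an adjusted p below 0.05 over all TEs (for genes, over all protein-coding genes) and the level differed by at least 20 points in CG, 10 in CHG or 5 in CHH. Of 16 genes of both routes, 0 were called in CG and 1 (NRPD1) higher in CHG in poliv heat against wt heat, with 0.194% and 0.337% of all protein-coding genes called in CG and CHG. In ddm1 heat against wt heat, 3 of the 16 were called lower in CG (NRPD1, SUVH5 and DCL3) and 2 higher in CHG (DDM1 and RDR2), with 6.22% and 4.87% of all protein-coding genes called.

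The 700 TEs carried dense methylation in CG and CHG in both poliv and wt. Their median CHH level was 3.38% and 2.82% in ddm1 heat and control, 9.84% and 10.7% in poliv heat and control, and 10.5% and 9.97% in wt heat and control, where the CHH values of poliv control and wt control are those the TEs were selected on. Median CG levels were 6.01% and 6.86% in ddm1 heat and control, 89.0% and 88.8% in poliv heat and control, and 90% and 88.9% in wt heat and control. CHG was likewise low in ddm1 and high in poliv and wt, with medians of 6.87% and 7.27% in ddm1 heat and control, 60.5% and 61.1% in poliv heat and control, and 60.9% and 63.1% in wt heat and control. Pol IV-dependent TEs had median CHG levels of 11.1% in poliv heat and 9.25% in poliv control, against 43.5% in wt heat and 50% in wt control. In ddm1 heat they had a median CG level of 30.7%, against 88.1% in wt heat. CG could be read in 554 to 612 and CHG in 544 to 600 of the 700 TEs, depending on the group, as the others had no value listed.

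**Figure D1:**
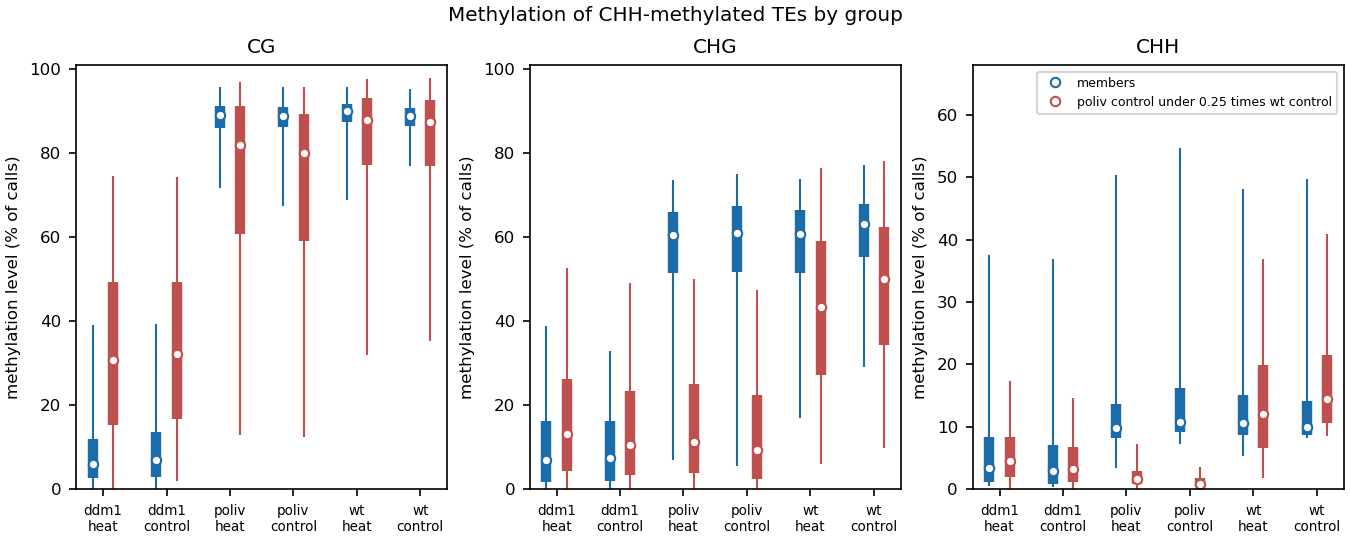
Methylation levels (percent of calls) in CG, CHG and CHH for the 6 groups, in the 700 Pol IV-independent TEs (members, blue) and the 1793 Pol IV-dependent TEs (red). Circles are medians over TEs, thick bars the middle 50%, thin bars run over the middle 90%. In CHG the red medians are 11.1% in poliv heat and 43.5% in wt heat, while the blue ones are 60.5% and 60.9%.

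The TEs differed widely in their number of calls. Their CHH calls in wt heat had a median of 995.5, against 208 for Pol IV-dependent TEs, 288 for the TEs in between and 328 for all TEs with coverage. Summed over the 6 groups, the calls of the 700 TEs ran between 443 and 195006. They are described below by quartile of this sum, which runs up to 1447 in the first quartile (176 TEs) and starts at 34188 in the fourth (175 TEs). Calls depend on the number of cytosines and on the depth, and TE length was not analysed here.

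The TEs with the most calls had low CHH, CHG and CG in ddm1 and like levels in poliv and wt. AT4TE08465, with 195006 CHH calls in all, had CHH levels of 5.46% and 4.80% in ddm1 heat and control, 8.69% and 9.36% in poliv heat and control, and 9.08% and 8.58% in wt heat and control. Its 95% Wilson intervals, which cover counting error only, were 8.36 to 9.04% in poliv heat and 8.76 to 9.40% in wt heat and thus overlapped. Among the 10 TEs with the most calls they did not overlap at AT4TE13505 and AT5TE31020, which were higher in poliv heat, and at AT2TE24385, AT3TE60460, AT1TE51155 and AT2TE27670, which were lower. The CG level of AT4TE08465 was 4.29% in ddm1 heat, 88.1% in poliv heat and 89.4% in wt heat. AT2TE24385 had CHH levels of 5.27% in ddm1 heat, 9.33% in poliv heat and 10.7% in wt heat. Its neighbour in this order, AT3TE60460, had 3.93%, 7.72% and 9.54% in the same groups. Over the 10 TEs with the most calls, CHH in wt heat lay between 7.81% (AT4TE13505) and 10.7% (AT2TE24385), and CHG in poliv heat between 54.7% (AT2TE27670) and 70.1% (AT5TE31020). In ddm1 heat the same 10 TEs spread from 1.29% (AT2TE27670) to 7.75% (AT5TE43190) in CHH and from 3.93% to 31.5% in CHG, with the same TEs at both ends.

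**Figure D2:**
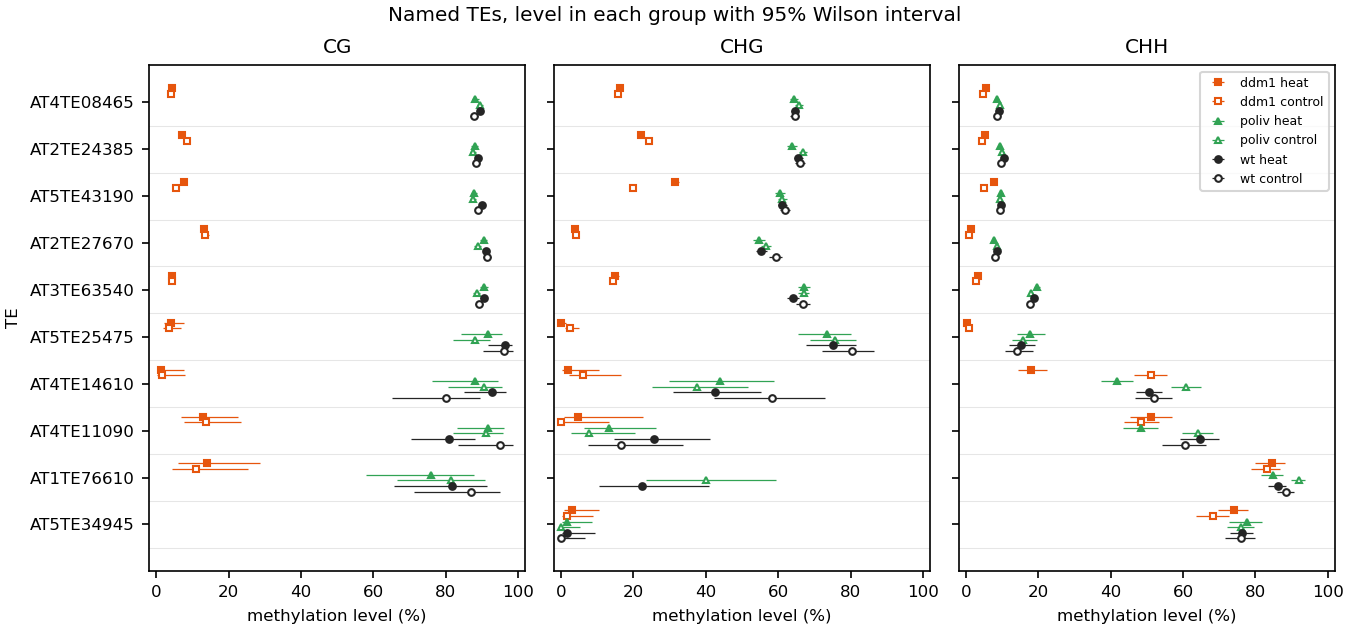
Levels (percent of calls, x axes) in CG, CHG and CHH of 10 named TEs (rows) in the 6 groups, with filled symbols for heat, open symbols for control and bars for the 95% Wilson interval. The upper 6 rows have CG above 85% in poliv and wt and at most 13.6% in ddm1, and the lower 4 have CHH of 41% or more in poliv and wt.

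The heat pair gives a measure of Pol IV independence that the choice of TEs did not use, because its libraries are separate from the control libraries. Of the 700 TEs, 576 had at least 8% CHH in wt heat and 445 (63.6%) met both parts of the rule in the heat pair. The share was 39.8% (70 of 176) in the first quartile of calls, 50.6% in the second, 72.6% in the third and 91.4% (160 of 175) in the fourth. By comparison, 21 of 1793 Pol IV-dependent TEs, 106 of 635 TEs in between and 335 of 16959 TEs below 8% in wt control met it in the heat pair. Of these 3 classes, only 1225, 430 and 1304 TEs had the 8% in wt heat that the rule needs. Over all 20087 TEs with coverage, 907 met the rule in the heat pair, including the 445. The ratio of poliv heat to wt heat in CHH had a median of 0.956 over the 698 TEs with a wt heat level above 0, and 0.136 over the Pol IV-dependent TEs. The middle 90% of the ratio lay between 0.0360 and 3.06 in the first quartile of calls and between 0.772 and 1.17 in the fourth, so the TEs with few calls scattered on both sides and those with many stayed close to 1.

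In CHH, 71 of the 700 TEs were called lower and 48 higher in poliv heat than in wt heat, against 11.3% lower and 1% higher over all 22103 TEs tested. A TE with little CHH cannot lose 5 points, and among the other 2428 TEs with at least 8% in wt control 1365 were called lower and 29 higher. In the first quartile of calls 32 were called lower and 17 higher, in the second 27 and 24, in the third 12 and 7, and in the fourth 0 and 0. With no minimum difference, 123 of the 700 TEs passed as lower and 72 as higher. Of the fourth quartile 35 passed as lower and 16 as higher, and the differences over its 175 TEs ran between -3.78 and 4.33 points.

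Some TEs chosen in the control pair were far apart in the heat pair. AT5TE60215 had CHH levels of 0% in poliv heat (177 calls, which allows up to 1.69%) and 59.3% in wt heat (150 calls), though it had 54.6% in poliv control and 26.2% in wt control. Both ddm1 groups were near 0, at 0.5% with heat and 0% in control, where 235 calls allow up to 1.28%. AT5TE30945 went the other way, with 64.5% in poliv heat and 1.23% in wt heat, against 51.6% in poliv control and 53.7% in wt control. AT1TE30045 (22.0% in poliv heat, 0.469% in wt heat) and AT5TE36985 (48.6% in poliv heat, 2.17% in wt heat) also had a low value in wt heat. These 4 TEs had 379 or fewer CHH calls in each group, and AT5TE60215 is 1 of 8 TEs with 0 methylated calls in poliv heat. The part of read number in these differences was not tested.

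CHG and CG in the poliv mutant bear on these TEs without having chosen them. In CHG, 5 of 468 TEs were called lower and 1 higher in poliv heat than in wt heat, against 6.66% lower and 0.486% higher over all TEs tested. With no minimum difference 8 passed as lower and 12 as higher, and with a coverage minimum of 100 there was 1 of each, so these few calls have no settled direction. The other CHH-methylated TEs had 241 of 524 called lower. In the control pair 6 of 449 were called lower in CHG and 0 higher, against 7.75% and 0.364% over all TEs, and 222 of 432 of the other CHH-methylated TEs were lower. In CG, 0 of 471 TEs were called in either direction in poliv heat, against 1.63% lower and 0.537% higher over all TEs, while 28 passed as lower and 6 as higher with no minimum difference. In poliv control 1 of 461 was called lower in CG and 0 higher, against 1.44% and 0.5%. The median difference in CHG was -0.10 points in the heat pair and -0.25 points in the control pair, while it was -23.5 and -26.6 points over the Pol IV-dependent TEs. These classes were not tested against each other.

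The few TEs called in CHG in both pairs are named here after their values were seen. AT3TE76850 had CHG levels of 9.68% in poliv heat, against 43.3% in wt heat, and of 5.36% in poliv control, against 46.4% in wt control. AT2TE06470 had 29.6% in poliv heat and 50.2% in wt heat, with 29.1% in poliv control and 55.1% in wt control. The values of AT3TE76850 rest on 56 to 67 CHG calls in each of these groups and those of AT2TE06470 on 189 to 292, so AT3TE76850 was not tested with a coverage minimum of 100.

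**Figure D3:**
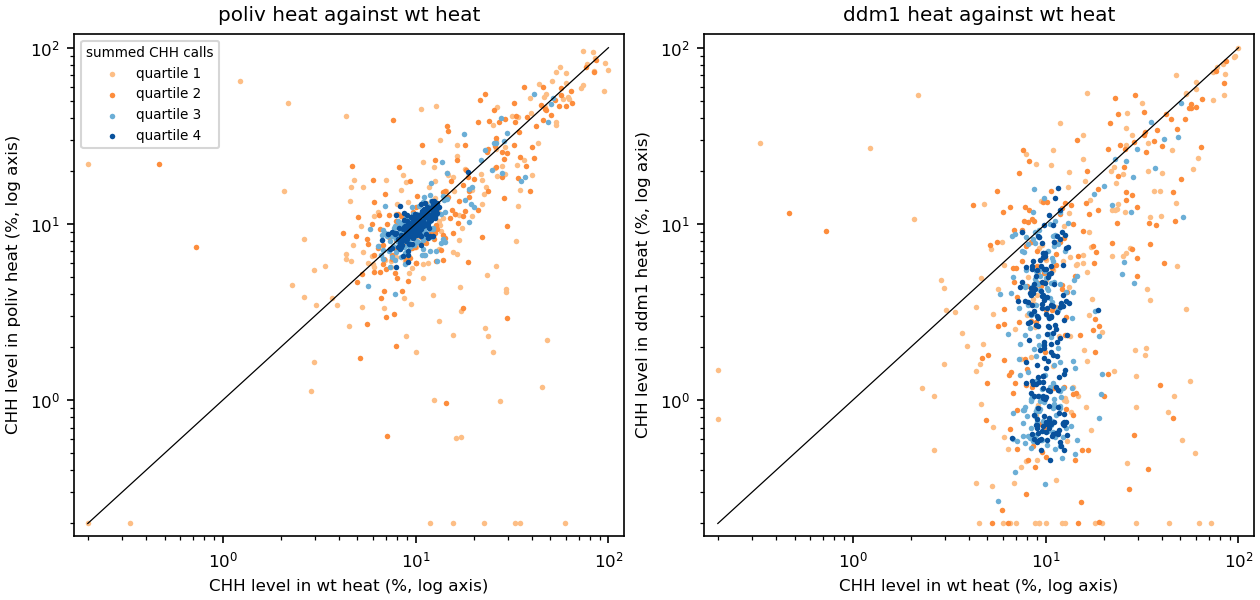
CHH levels (percent, log axes) of the 700 TEs in poliv heat (left) and ddm1 heat (right) against wt heat, with levels below 0.2% drawn at 0.2% and the line of equal levels in black. Colours are quartiles of summed CHH calls. The fourth quartile (dark blue) lies along the line in poliv heat, with a median ratio of 0.975, and spreads downwards in ddm1 heat over 0.460% to 15.9%.

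CG and CHG methylation of these TEs was low in ddm1. In CG, 479 of 494 TEs were called lower and 0 higher in ddm1 heat than in wt heat, with a median difference of -82.7 points, against 75.7% lower and 0.0949% higher over all TEs tested. In the control pair 450 of 462 were lower and 0 higher, with a median of -80.7 points, against 77.7% and 0.0769%. In CHG, 458 of 482 were called lower and 1 higher in ddm1 heat, with a median of -49.3 points, against 69.3% and 0.699%. In the control pair 431 of 449 were lower and 0 higher in CHG, with a median of -50.5 points, against 74.6% and 0.378%. All 175 TEs of the fourth quartile were called lower in both contexts and both pairs. The shares over all TEs include TEs with too little CG or CHG in wt to be called lower. Among the other CHH-methylated TEs, 731 of 824 were lower in CG in ddm1 heat and 0 higher, and in CHG 492 of 626 and 6. TEs in between had 300 of 311 lower and 0 higher in CG, and 245 of 278 and 1 in CHG. Low CG in ddm1 was thus not particular to the Pol IV-independent TEs.

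The CHH level in ddm1 varied more between TEs. In ddm1 heat 430 of 700 TEs were called lower and 32 higher than in wt heat, against 15.2% lower and 2.14% higher over all TEs tested. Among the other 2428 CHH-methylated TEs 1170 were lower and 70 higher. The median ratio of ddm1 heat to wt heat was 0.325 for the 700 TEs and 0.390 for the Pol IV-dependent TEs. The ratio was below 0.25 in 304 of the 700 TEs, 0.25 to under 0.75 in 241 and 0.75 or more in 153. In ddm1 heat, 5292 of all 20087 TEs with coverage had a CHH level at or below the chloroplast level of that group. So did 185 of the 1793 Pol IV-dependent TEs, 73 of the 635 TEs in between and 130 of the 700 TEs. AT3TE62055, for example, had 0.204% and 0.426% CHH in ddm1 heat and control, against 18.9% and 13.0% in wt heat and control, and AT5TE25475 had 0.264% and 0.853% in ddm1 heat and control, against 15.2% and 14.2%. Neither stood above the chloroplast level in ddm1 heat, while poliv heat had 15.4% at AT3TE62055 and 17.6% at AT5TE25475. AT5TE47170 had 0 methylated calls of 353 in ddm1 heat, which allows a level of up to 0.850%.

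Among the TEs of the fourth quartile, the CHH level left in ddm1 heat ran in parallel with the CHG level left there. Spearman's rho over these 175 TEs was 0.92 between CHH and CHG in ddm1 heat and -0.064 between CHH in ddm1 heat and CHH in wt heat. Over all TEs with a value the same measures were 0.56 (n = 592) and 0.32 (n = 700). These are descriptions, since the points share libraries and depth. CHG in ddm1 heat ran between 0.588% and 52.7% over these TEs, while it ran between 45.6% and 73.4% in wt heat. Levels in ddm1 kept their order between treatments, with rho of 0.93 for CHH, 0.94 for CHG and 0.94 for CG between ddm1 heat and ddm1 control. AT2TE27670 stood at the low end with 3.93% CHG and 1.29% CHH in ddm1 heat, although its CG level of 13.2% was above that of AT4TE08465 (4.29% CG, 16.2% CHG and 5.46% CHH in ddm1 heat). AT1TE28830 had 9.15% CHG and 1.41% CHH in ddm1 heat, against 64.4% CHG and 12.5% CHH in wt heat.

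A few TEs had high CG in ddm1. The highest in ddm1 heat was AT3TE09350, with CG of 78.4% and 74.3% in ddm1 heat and control, 82.9% and 75% in poliv heat and control, and 75.9% and 76.9% in wt heat and control. Its CHG level was 9.16% or below in every group. AT1TE53105 had CG of 77.8% and 64.4% in ddm1 heat and control, against 92.9% and 85.7% in wt heat and control, with CHH of 63.4% in ddm1 heat and 84.2% in wt heat. At AT2TE08750 CG was 71.4% in ddm1 heat (42 calls) and 94.6% in wt heat (37 calls), and at AT5TE51105 it was 66.7% in ddm1 heat (69 calls) and 88.3% in wt heat (103 calls). The 1 TE called higher in CHG in ddm1 heat, AT2TE17575, had 82.9% there (76 calls) and 62.5% in wt heat (64 calls). AT5TE66505, one of the lowest in CHH in ddm1 heat, had 0.641% CG, 0.382% CHG and 0.295% CHH in ddm1 heat, against 83.9% CG, 46.6% CHG and 7.89% CHH in wt heat.

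Coverage of these TEs was also higher in ddm1. Relative to all CHH calls of its group, the median TE had 1.41 times as many calls in ddm1 heat as in wt heat and 1.26 times as many in ddm1 control as in wt control, against 1.08 and 1.19 times over all TEs with coverage. In the fourth quartile the median was 1.57 times with heat and 1.36 times in control, and in poliv it was 1.02 times with heat and 0.975 times in control. Its part in the levels of ddm1 was not tested.

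**Figure D4:**
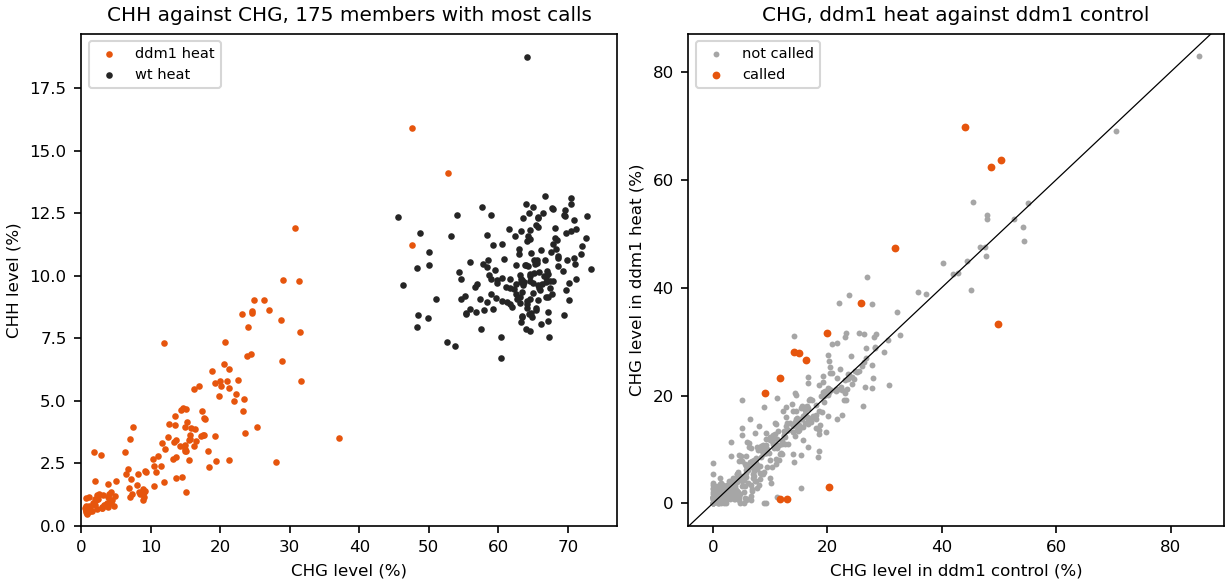
Left, CHH against CHG level (percent) of the 175 TEs with the most calls in ddm1 heat (orange) and wt heat (black), where CHG runs between 0.588% and 52.7% in ddm1 heat and between 45.6% and 73.4% in wt heat. Right, CHG level in ddm1 heat against ddm1 control for the 497 TEs tested, with the 15 called TEs in orange (11 above and 4 below the line of equal levels).

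A smaller number of TEs had very high CHH. In wt heat 132 of the 700 TEs were at 20% or more, 98 of them below 50% and 34 at 50% or more. These 132 TEs had few calls, with a median of 315 CHH calls in wt heat, and 0 of the fourth quartile was among them. Whether their calls include fragments that failed to convert or reads from other loci was not tested, so the levels stand as measured. Their median CHH level was 18.6% and 20.9% in ddm1 heat and control, 31.8% and 38.7% in poliv heat and control, and 34.0% and 35.8% in wt heat and control. CG was low in ddm1 at these TEs too, with a median of 4.02% in ddm1 heat, against 91.2% in wt heat, over the TEs with a value. The ratio of ddm1 heat to wt heat in CHH was 0.75 or more in 53 of the 132 TEs (40.2%), in 18 of the 124 at 12 to under 20% and in 82 of the 444 below 12%. These shares are descriptions, as the wt heat level enters both the ratio and the bins.

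In 47 TEs CHH was 20% or more in all 6 groups. AT1TE76610 had 84.5% and 83.2% in ddm1 heat and control, 84.8% and 92.0% in poliv heat and control, and 86.2% and 88.5% in wt heat and control, from 309 to 776 calls. By Fisher's exact test, the differences in the heat pair were -1.75 points for ddm1 (adjusted p = 0.805) and -1.45 points for poliv (adjusted p = 0.928). Its CG level was 13.9% in ddm1 heat (36 calls), 75.9% in poliv heat and 81.8% in wt heat (33 calls). At this TE CG methylation was low in ddm1 while CHH stayed high in all groups. AT5TE34945 had 74.0% and 68.3% CHH in ddm1 heat and control, 77.6% and 76.1% in poliv heat and control, and 76.3% and 76.0% in wt heat and control. Its CHG level was 3.08% or below in every group, so most CHH calls were methylated and most CHG calls were not. AT4TE11090 had 51.2% CHH, 4.76% CHG and 12.9% CG in ddm1 heat, and 64.7%, 25.6% and 80.8% in wt heat.

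In most plant TEs CHH is the least methylated context. Among the 591 Pol IV-independent TEs with a CHG value in wt heat, 39 had more CHH than CHG. These included 25 of the 86 such TEs at 20% CHH or more and 0 of the 175 of the fourth quartile. More CHH than CHG was not particular to them, with 2586 of 14510 over all TEs with coverage. Of these 2586, 2462 lay below 8% CHH in wt control, a class with a median CHH of 2.55% in wt heat. Among TEs at 8% or more, CHH lay above CHG in 60 of 1035 Pol IV-dependent TEs and 25 of 446 TEs in between. In 22 of the Pol IV-independent TEs CG was below 50% in wt heat. Their medians in wt heat were 3.14% CG, 1.09% CHG and 21.1% CHH, and in ddm1 heat 0.310% CG, 2.05% CHG and 18.2% CHH. Chloroplast DNA had 0.670% CG and 0.703% CHH in the same libraries.

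The TEs with high CHH were not spread evenly along the identifiers, which are numbered in order along each chromosome. Windows of 5000 numbers were used because positions and sequences were not analysed here. On chromosome 1, the numbers 45000 to 49999 held 62 of the 700 TEs among 440 TEs with coverage (14.1%), and 29 of these 62 had 20% CHH or more in wt heat. The window 50000 to 54999 next to it held 33 of 531. On chromosome 4, the numbers 10000 to 14999 held 32 of 401 (7.98%), of which 20 had 20% or more. Windows with fewer TEs reached like shares, with 5 of 58 (8.62%) on chromosome 3 (5000 to 9999) and 7 of 85 (8.24%) on chromosome 1 (15000 to 19999). The share over the whole genome was 3.48%. By chromosome it was 4.45% on chromosome 1, 2.87% on 2, 3.29% on 3, 3.50% on 4 and 3.23% on 5. AT4TE14610 lay in the chromosome 4 window, with CHH of 18.1% and 51.0% in ddm1 heat and control, 41.6% and 60.9% in poliv heat and control, and 50.7% and 51.9% in wt heat and control, while its CG level was 1.43% in ddm1 heat and 92.8% in wt heat. AT4TE14660 and AT4TE14645, close to it by number, had 94.6% and 85.3% CHH in wt heat. These windows were picked after the counts were seen.

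**Figure D5:**
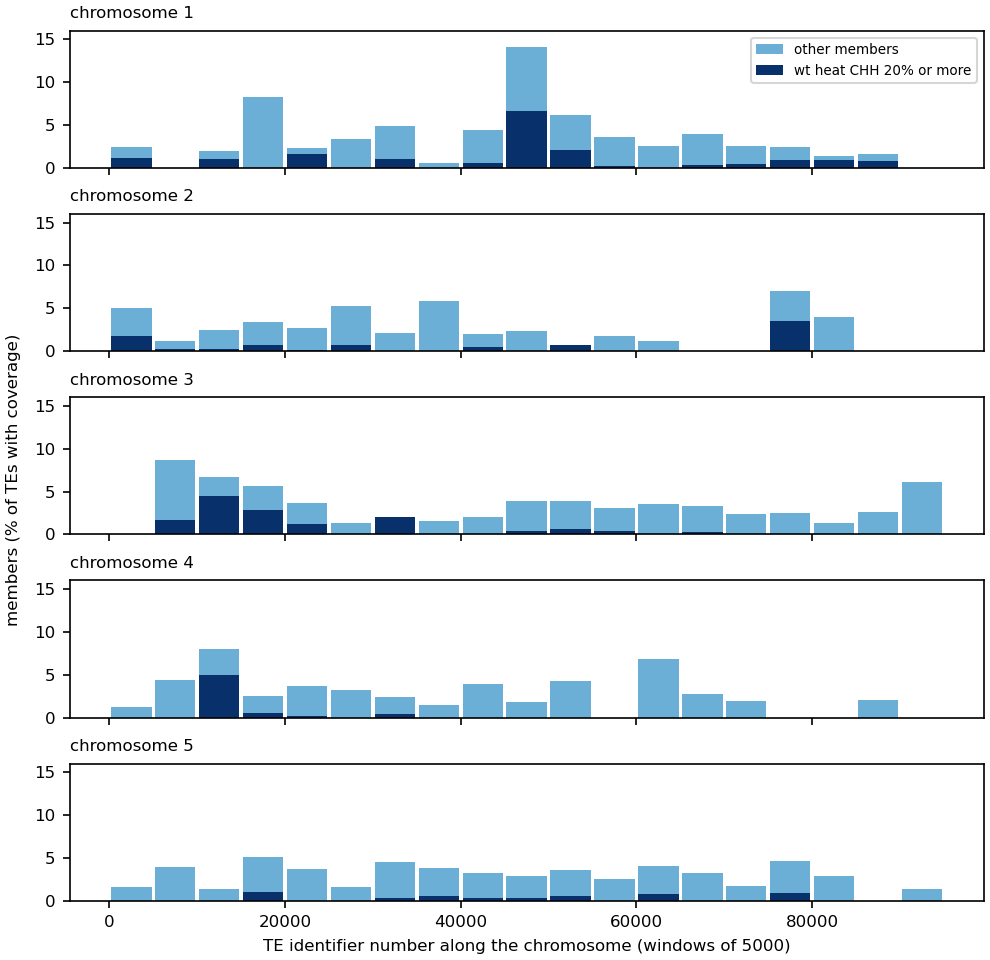
Share of TEs with coverage that belong to the 700 Pol IV-independent TEs (percent, y axis), in windows of 5000 TE identifier numbers along the 5 chromosomes, with TEs at 20% CHH or more in wt heat in dark blue. The window at 45000 on chromosome 1 reaches 14.1% and that at 10000 on chromosome 4 reaches 7.98%.

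Few TEs differed in CG or CHG between heat and control in wt and poliv after 21 days of recovery. In wt heat against wt control 0 of 462 TEs were called in CG and 0 of 449 in CHG, against 0.103% and 0.154% of all TEs. In poliv heat against poliv control 0 of 471 were called in CG and 0 of 469 in CHG, against 0.242% and 0.076%. With no minimum difference, 24 TEs passed in CG and 2 in CHG in wt, and 5 and 1 in poliv. The median change in CG was 1.16 points in wt and 0.43 points in poliv, against 1.13 and 0.36 over all TEs tested. CHH in wt and poliv is not tested here, as the control values chose the TEs.

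In ddm1 heat against ddm1 control, 2 of 513 TEs were called in CG, against 0.608% of all TEs, and 15 of 497 in CHG, against 1.16%. The CHG share was 3.02%, against 2.05% of the 733 other CHH-methylated TEs tested and 3.53% of the 312 in between. Of the 15 Pol IV-independent TEs called in CHG, 11 were higher with heat. The largest of them by calls was AT5TE43190, with CHG of 31.5% in ddm1 heat and 19.9% in ddm1 control, 60.5% and 61.2% in poliv heat and control, and 61.1% and 61.9% in wt heat and control. CHH of AT5TE43190 moved by less than the minimum, with 7.75% in ddm1 heat and 4.87% in ddm1 control, a difference of 2.88 points. AT5TE63010, which is named after its values were seen, had the largest gain in CHG, with 69.8% in ddm1 heat and 44.1% in ddm1 control. AT1TE34580 and AT4TE44080, also named afterwards, had lower CHG with heat, at 0.898% and 0.835% in ddm1 heat, against 13.0% and 11.8% in ddm1 control. When the statistic was scaled by its spread over all TEs, 9 TEs were called in CHG and 1 in CG.

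In CHH, 76 of 700 TEs were called between ddm1 heat and ddm1 control, 44 higher and 32 lower with heat, against 3.71% of all TEs. The share called was 10.9% of the 700, against 12.2% of the other 2428 CHH-methylated TEs. With the scaled statistic 12 of the 700 were called. The first and second quartiles of calls held 71 of the 76, and the fourth held 0. The largest falls were at AT5TE39335 (3.28% in ddm1 heat, 64.9% in ddm1 control, 61 and 151 calls) and AT5TE39635 (50.6% in ddm1 heat, 100% in ddm1 control). The largest rises were at AT4TE09855, with 37.6% in ddm1 heat and 4.70% in ddm1 control, and AT4TE14715, with 46.2% and 17%. Background also differed, at 0.805% in ddm1 heat and 0.450% in ddm1 control.

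Of the 8 ONSEN copies, which are heat-activated ATCOPIA78 retrotransposons, 0 were among the 700 TEs, and of the study's 54 heat-induced TEs (45 with coverage) 0 were. Over all TEs with coverage the share was 3.48%, so counts of 0 in lists of this size say little about the 700 TEs. The study also lists 65 TEs with a potential heat-factor motif, picked among TEs with raised transcripts in inflorescences of heated poliv, and 5 of the 61 with coverage were among the 700. AT3TE63540 stood out among them with a CHH level of 3.24% and 2.71% in ddm1 heat and control, 19.6% and 18.0% in poliv heat and control, and 18.8% and 17.6% in wt heat and control, while the other 4 lay between 7.39% and 10.9% in poliv heat. By Fisher's exact test, CHH of AT3TE63540 in the heat pair differed by -15.5 points for ddm1 and by 0.853 points for poliv (adjusted p = 0.338). Of the study's 77 TEs that overlap a differentially methylated region, 13 were among the 700, AT5TE43190 and AT4TE08475 with them. That list was drawn from these libraries and is not independent of them. AT4TE33660 of this list had more CHH in ddm1 control (12.1%) than in wt control (9.25%), and in the heat pair 10.4% in ddm1 and 11.2% in wt.

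The limits of the rule cut through a continuous range. Just inside 8% in wt control were AT4TE24715 (8.00%, from 100 calls) and AT1TE55000 (8.00%, from 2524 calls), and just outside were AT3TE45800 and AT1TE67450 (both 7.99%). In the heat pair AT1TE55000 had 8.63% in poliv and 8.06% in wt, AT3TE45800 had 9.82% in poliv and 9.44% in wt, and AT4TE24715 had 3.48% in poliv and 3.06% in wt. Near the ratio of 0.75 were AT4TE14745 inside (0.752) and AT5TE76220 outside (0.748).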

How the data were processed

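Bisulfite sequencing covered 12 samples in 6 groups of 2. Reads were trimmed with Trim Galore 0.6.2, mapped to the TAIR10 genome in Bismark 0.22.2 and deduplicated, and methylpy gave the state of each cytosine, as the methods and labels state. The submitters' processing notes also name bedtools 2.27. The deposited table holds, per feature, context and group, whole counts of methylated cytosine calls and of all calls, with no normalisation by the authors. It also holds 18 columns with the fraction methylated as deposited, which were not used. It has 1 column per group, and the sources used here do not say how the 2 libraries were combined. Calls on 1 read are not independent, and the 95% Wilson intervals cover counting error only. The smallest coverage listed is 21.

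Levels were recomputed as methylated over all calls in Python 3.11.15 with pandas 2.3.3 and scipy 1.17.1. Fisher's exact p is 2 times the smaller tail, with Benjamini-Hochberg adjustment over all TEs (or all protein-coding genes) with at least 50 calls in both groups, separately for each context and comparison. The wt columns serve both mutants, so no overlap between the mutants is given. CHH was not tested in comparisons that hold poliv control or wt control, since these chose the TEs. The test was tested on simulated data with known changes. The simulated calls were drawn independently, so this cannot give the error rate in these data, where calls on 1 read are not independent. Alternatives were other coverage minima and ratios, no minimum difference, background matched to the chloroplast level, and division of the statistic by the square root of its median square over the expected median. This division was used only between heat and control of 1 genotype. The rule for named TEs took the 10 with the most CHH calls, the 5 highest in wt heat, the 5 at each end of the ratio of poliv heat to wt heat, the 5 at each end of CHH in ddm1 heat (at least 200 calls in each group) and of the called heat changes in ddm1, the 5 highest in CG in ddm1 heat, those next to the limits and those on the study's lists, and the text names a part. The TEs, lists and tests were chosen with earlier results of these data known. The quartiles, level bins, identifier windows and the difference of heat effects were chosen after values were seen. A row that names no gene was left out. TE positions, families and sequences were not analysed here.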

Additional observations from a re-analysis of the deposited data

Results flagged for a closer look

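At AT5TE43190 the CHG difference between heat and control was larger in the pooled ddm1 libraries than in the pooled wt libraries. The level was 11.6 points higher in ddm1 heat than in ddm1 control, and the change in wt heat against wt control was -0.776 points. The difference between these heat effects was 12.35 points (adjusted p = 4.43e-23, from a normal approximation on pooled calls, not an exact test, adjusted over all TEs). Over the 448 Pol IV-independent TEs with enough CHG calls, 15 had a heat effect in ddm1 above that in wt and 3 below it, against 2.21% of all TEs called. This 2.21% holds both directions, and the share among the other CHH-methylated TEs alone was not computed. In CHG of ddm1 heat against ddm1 control, 92 of all TEs tested were called higher and 14 lower. In CG 3 of 461 had a heat effect in ddm1 below that in wt and 0 above it, against 1.04% of all TEs called. For poliv the counts were 1 of 443 above in CHG, against 0.403% of all TEs, and 0 of 455 in CG, against 0.755%. These values compare pooled libraries, with calls taken as independent and no replicate error. The statistic was not scaled here, and the cause was not tested.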

How the results depend on the processing

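No paired analysis was possible because each column holds 2 libraries and no replicate number, so no replicate could be left out either. The number of TEs was 597 with a coverage minimum of 100, 485 with 200, 586 after subtracting the chloroplast level and 531 with a ratio of 0.9. Each of these rules is stricter than the one used, so their TEs lie among the 700 by construction. The median ratio to wt heat stayed within 0.953 to 0.970 for poliv heat, and was 0.260 for ddm1 heat after subtraction.

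With no minimum difference, the calls in poliv heat against wt heat were 28 lower and 6 higher in CG, 8 lower and 12 higher in CHG, and 123 lower and 72 higher in CHH. In poliv control against wt control they were 15 lower and 8 higher in CG, and 16 lower and 6 higher in CHG. In ddm1 against wt the higher calls were 1 in CG and 4 in CHG in the heat pair, and 1 in CG and 2 in CHG in the control pair. Between heat and control, 24 TEs passed in CG and 2 in CHG in wt, 5 and 1 in poliv, and 54 in CG, 80 in CHG and 224 in CHH in ddm1.

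With a coverage minimum of 100, the lower calls in CHG were 1 in poliv heat and 1 in poliv control, those in CG were 0 in poliv control, and the higher calls in CHG were 0 in ddm1 heat. Between heat and control 1 TE was called in CHG in wt and 1 in CG in ddm1. With the background matched 1 was called in CHG in wt. With the scaled statistic, ddm1 heat against ddm1 control gave 1 in CG, 9 in CHG and 12 in CHH. The other counts stayed within 1.5 times under the settings applied to them. The scaled statistic was applied only between heat and control of 1 genotype, so calls of mutants against wt were not checked with it. In CHG of poliv heat against wt heat the balance of lower and higher calls turned with no minimum difference. The cause of each move was not tested, beyond the fewer TEs that the higher coverage minimum leaves. Levels of the TEs with few calls scattered most in the heat pair, and the part of read number in this was not tested.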
